A study of Mus musculus with 10 samples.

Results

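Chromatin loops that were listed in both groups of mouse macrophages from which IL-4 had been washed out, and in no other group, made up a small and weak fraction of the loop lists. They were chosen by a rule on the lists. A loop between 2 bins of 10 kb on an autosome, taken from the list of IL-4-primed macrophages, was kept when the primed and IFNG-treated list held a loop with both anchors at most 20 kb off, and when none of the 3 other lists did. The rule was met by 1000 of 67532 autosomal loops in the primed list (1.48%). The 5 lists together held 301424 loops. These 1000 loops are called washout loops below, after the rule and not after a cause.

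Bone marrow-derived macrophages (MFs) came from wild type C57BL/6 female mice of 2 to 3 months and were differentiated with 20 ng/ml M-CSF until treatment on day 6. Hi-C was run on 5 groups of 2 replicate samples each. M0[CTR] received no cytokine, M2[IL-4] received IL-4 at 20 ng/ml for 24 h, and IFNG received interferon gamma at 20 ng/ml for 3 h. The primed group, M2p[pIL-4], had 24 h of IL-4, 3 washes and 24 h of rest. The group pIL-4 + IFNG had the same priming and rest and then 3 h of IFNG at 20 ng/ml. By these times both washed-out groups were in culture at least 24 h longer than M2[IL-4], and longer still than M0[CTR] and IFNG. Washout and time in culture cannot be told apart because no untreated group rested as long. One loop list stood for each group, so that no difference between groups could be tested against the spread between replicates. Intervals given below are 95% and cover counting error only.

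A Hi-C loop is a pair of distant genomic positions that are ligated to each other more often than their surroundings. Many loops form when cohesin extrudes DNA until it meets the zinc finger protein CTCF bound at sites that point toward each other, called a convergent pair. Other loops join promoters with enhancers. IL-4 acts in macrophages through STAT6 and turns on genes of alternative activation such as Pparg, whereas IFNG turns on genes of antimicrobial defence. STAT6 binds sites in which TTC and GAA face each other across a short gap.

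Each list gave a whole number of contacts for each pair of bins, with a median of 32 contacts in every list. The lists differed in length. M2p[pIL-4] and pIL-4 + IFNG were the longest, with 67532 and 66827 autosomal loops, and were 26.8% and 25.4% longer than M0[CTR] with 53273 loops. M2[IL-4] held 58117 and IFNG 54869. At the 14041 pairs of bins listed in all 5 groups, the summed contacts were between 99.8% and 103.6% of those in M0[CTR], so that the counts at shared loops differed far less than the lengths of the lists. The shares matched in each list are therefore also given with lists cut to equal length, which drops the weakest loops as well.

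The sequences at washout loop anchors are shown here for the loops with the strongest calls or the most adjoining calls whose anchors held a convergent pair of CTCF consensus matches. They show where the consensus was matched. Each is read 5′ to 3′ on the strand of the match in GRCm38, with the 14 bases of the match in capitals and 10 flanking bases on each side in lower case. The first anchor of a loop holds a match on the plus strand and the second anchor a match on the minus strand. A match to the consensus is not evidence of binding. A convergent pair of matches was present in 5.8% of washout loops and 10.1% of all M2p[pIL-4] loops.
Gas2l2 loop, first anchor, chr11:83321468-83321501: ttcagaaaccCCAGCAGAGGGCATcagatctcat
Gas2l2 loop, second anchor, chr11:83424863-83424896: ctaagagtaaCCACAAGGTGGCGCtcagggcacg
Prss56 loop, first anchor, chr1:87174459-87174492: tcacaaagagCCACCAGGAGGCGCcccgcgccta
Prss56 loop, second anchor, chr1:87185031-87185064: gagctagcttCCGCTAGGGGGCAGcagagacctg
Zmiz1 loop, first anchor, chr14:25621228-25621261: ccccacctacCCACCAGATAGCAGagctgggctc
Zmiz1 loop, second anchor, chr14:25631973-25632006: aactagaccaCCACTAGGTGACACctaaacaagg
Ank2 to Larp7 loop, first anchor, chr3:127323075-127323108: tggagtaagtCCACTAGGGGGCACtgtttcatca
Ank2 to Larp7 loop, second anchor, chr3:127548072-127548105: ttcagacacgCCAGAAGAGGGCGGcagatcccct
Nts loop, first anchor, chr10:102491968-102492001: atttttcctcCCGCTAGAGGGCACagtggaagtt
Nts loop, second anchor, chr10:102735410-102735443: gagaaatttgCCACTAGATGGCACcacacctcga

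Of these 10 matches, the first anchor of the Ank2 to Larp7 loop and the second anchor of the Nts loop followed the consensus with no mismatch, and the others had 1 mismatch. Each anchor of the Gas2l2 loop held 2 matches, of which 1 in the convergent orientation is shown. The anchors of the other loops held 1 match each.

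Loops found in M2p[pIL-4] alone were more numerous, at 3315. Of the M2p[pIL-4] loops, 4315 had no match in M0[CTR], M2[IL-4] or IFNG, and 23.2% of these (interval 21.9 to 24.5%) were matched in pIL-4 + IFNG. The same count was made with every other list as the only match, on the same M2p[pIL-4] loops, so that these shares are not independent of each other. M0[CTR] matched 651 of 3966 loops (16.4%), M2[IL-4] 837 of 4152 (20.2%) and IFNG 535 of 3850 (13.9%). The share was thus highest with the second washed-out list and next with M2[IL-4].

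This order was not the same with shortened lists. When every list was cut to the 53273 strongest loops, with strength taken as a loop's contacts divided by the median for loops of equal span in its own list, 560 loops met the rule and the share with pIL-4 + IFNG was 20.8% (19.3 to 22.4%). It then lay beside M0[CTR] at 20.7% and below M2[IL-4] at 22.2%, and the intervals of all 3 overlapped. When only loops of 20 or more contacts were kept, the share with pIL-4 + IFNG was 29.0% (27.3 to 30.8%), against 23.4% with M2[IL-4] and 19.5% with M0[CTR]. Counted from the pIL-4 + IFNG list, 940 loops met the same rule, 22.5% of the 4178 absent from the 3 other lists.

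**Figure D1:**
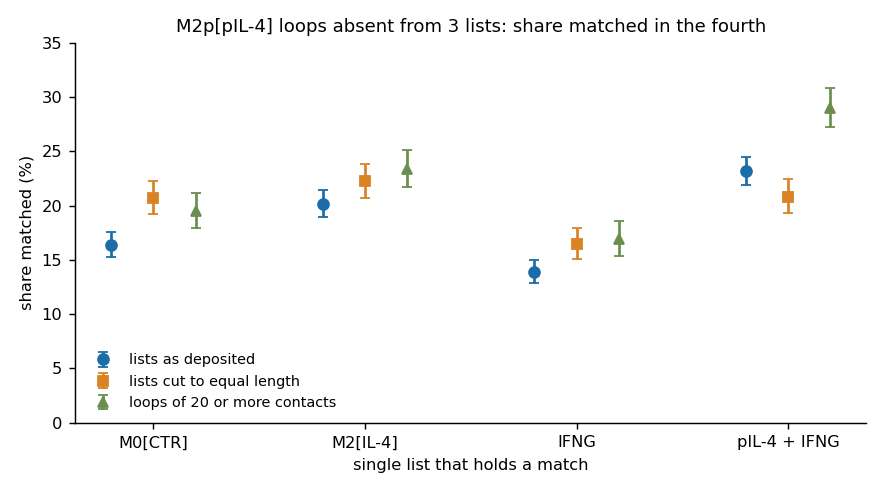
Share of M2p[pIL-4] loops absent from 3 of the other lists that were matched in the fourth (y axis, percent), by the list that held the match (x axis), with 95% Wilson intervals that cover counting error only. Circles are the lists as deposited, squares the lists cut to equal length and triangles the loops with 20 or more contacts. With equal lengths the washed-out partner lay at 20.8%, between M0[CTR] at 20.7% and M2[IL-4] at 22.2%.

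Some other pairs of lists also shared loops of their own at such rates. The pairs among M0[CTR], M2[IL-4] and IFNG, the shorter lists, had lower shares, from 12.6% to 17.9%. Both lists of IFNG-treated MFs shared 813 of the 3079 IFNG loops that had no match in the remaining lists (26.4%). Counted from pIL-4 + IFNG, they shared 888 of the 4126 loops absent from the remaining lists (21.5%). M2[IL-4] shared with M2p[pIL-4] 866 of the 3465 of its loops that were absent from M0[CTR], IFNG and pIL-4 + IFNG (24.99%). M0[CTR] loops found otherwise only in M2p[pIL-4] made up 575 of 2486 (23.1%), a share like that of the washout loops. Counted from the longer list, M2p[pIL-4], the same pair gave 16.4%.

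The washout loops were seldom called at the same position in both lists. In pIL-4 + IFNG, 204 were called in the same bins, 355 had their match 10 kb off and 441 had it 20 kb off, the largest distance the rule allowed. The share in the same bins, 20.4%, was also found for M2p[pIL-4] loops matched only in M0[CTR] (20.1%), only in M2[IL-4] (20.7%) or only in IFNG (20.7%). Of all M2p[pIL-4] loops with a match in pIL-4 + IFNG, 53.9% were in the same bins.

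Most washout loops also lay close to a loop of the groups without washout. The nearest loop of M0[CTR], M2[IL-4] or IFNG was 30 kb off for 508 of them, which is the first distance outside the rule. It was 40 kb off for 161 and more than 50 kb off for 247, and 96 had none within 100 kb. Just inside the threshold, the 508 loops had a median of 25 contacts and a median strength of 0.923. Just outside it, 2176 loops matched in pIL-4 + IFNG with a loop of the 3 other lists 20 kb off had a median of 26 contacts and a strength of 0.913. The 96 loops far from any other had 24 contacts and 0.849.

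**Figure D2:**
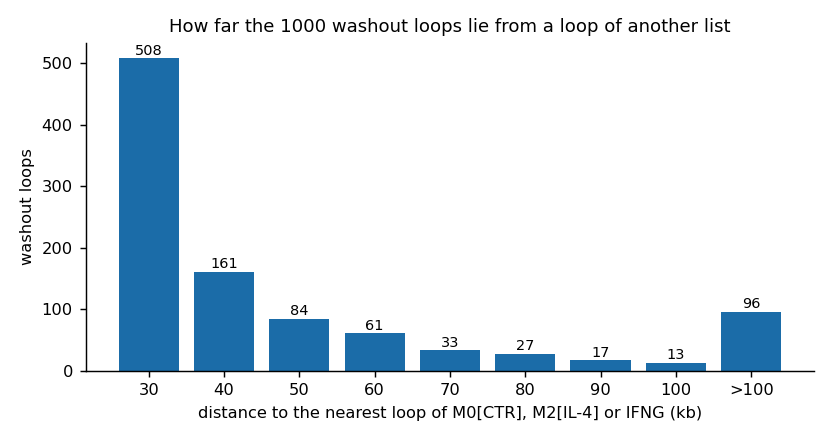
Number of washout loops (y axis) by the distance in kb to the nearest loop of M0[CTR], M2[IL-4] or IFNG (x axis), the larger of the offsets of both anchors. The rule excludes distances up to 20 kb. The first bar, at 30 kb, holds 508 of 1000 loops, and the last bar holds the 96 with none within 100 kb.

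Where a loop of M0[CTR], M2[IL-4] or IFNG lay within 100 kb, the nearest one was set against the washout loop. In 691 of 904 such cases (76.4%) one anchor was within 20 kb of an anchor of that loop and the other was farther away. The rule excludes loops with both anchors within 20 kb, and the nearest loop was taken, which by itself favours this outcome. No comparison set was counted, so the share does not show that ends were shared. The washout loop was the longer in 403 cases, the shorter in 421 and of the same span in 80, so that neither direction prevailed.

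Single anchor bins were compared with those of M0[CTR] as well. Of the 2000 anchor ends of the washout loops, 1000 were in a bin that anchored some loop of M0[CTR], and 67.7% were in or next to such a bin. The shares in and in or next to such a bin were 84.8% and 94.2% over all M2p[pIL-4] loops, and over loops found in M2p[pIL-4] only they were 40.5% and 56.8%. Both anchors were anchors in M0[CTR], M2[IL-4] or IFNG for 47.8% of washout loops and neither was for 10.2%. Over all M2p[pIL-4] loops, neither was for 1.52%. The shares for M2p[pIL-4] loops matched only in M2[IL-4] (51.4% of ends in an M0[CTR] anchor bin) or only in IFNG (49.1%) were close to that of the washout loops.

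The surroundings of the washout loops were sparse. A washout loop had a median of 6 other M2p[pIL-4] loops with both anchors within 100 kb (quartiles 2 and 14), against 23 (11 and 40) in an even sample of 6754 M2p[pIL-4] loops. The median number of M0[CTR] loops in that window was 4 around washout loops and 19 around the others. The rule itself, which excludes near loops of 3 lists, lowers these numbers.

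By strength the washout loops were weak. Their counts had a median of 25 contacts (quartiles 16.8 and 39, range 6 to 226) and their median strength was 0.909 (0.781 to 1.04), against 1.03 for loops found in all 5 lists. Loops matched in only one other list were much alike in this, with a median strength of 0.906 for M0[CTR], 0.917 for M2[IL-4] and 0.905 for IFNG. In the weakest decile of M2p[pIL-4] loops, 186 (2.75%) were washout loops, and in the strongest decile 16 (0.237%).

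The washout loops spanned more than loops found in all 5 lists and less than those of M2p[pIL-4] alone. The median span was 200 kb (quartiles 90 and 390), against 160 kb for all M2p[pIL-4] loops and 150 kb for loops found in all 5 lists. It was 220 kb for loops matched only in M0[CTR], 210 kb for M2[IL-4], 250 kb for IFNG and 330 kb for loops of M2p[pIL-4] alone. Loops of 500 kb or more made up 19.1% of washout loops and 10.5% of all M2p[pIL-4] loops, and 23.1 to 24.6% of the loops matched in 1 other list. At the short end, 59 washout loops (5.9%) joined adjacent bins, against 4.55% of all. The share was 5.42 to 8.45% for loops matched in 1 other list and 6.58% for those of M2p[pIL-4] alone. The share that were washout loops was therefore higher at both ends, 1.92% among adjacent bins and 2.69% at 500 to 1490 kb, than at 20 to 90 kb (1.19%).

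**Figure D3:**
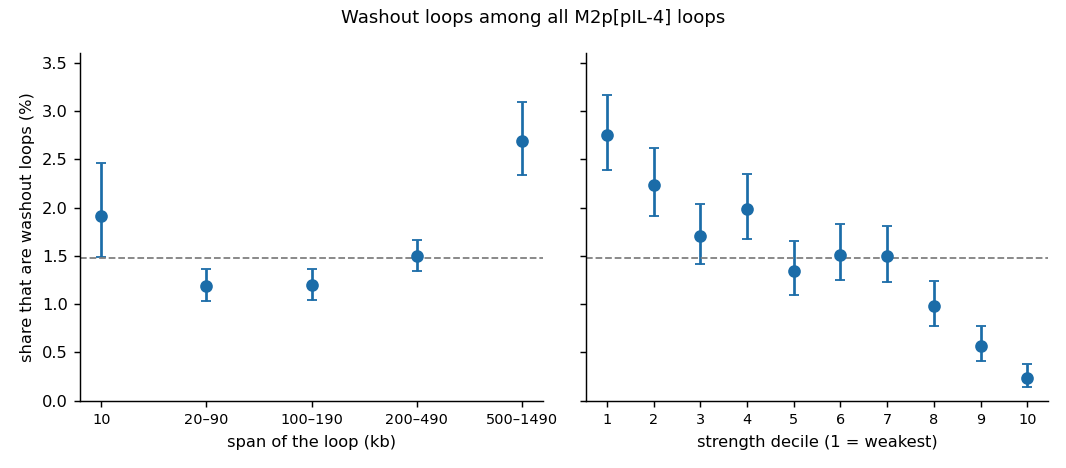
Share of M2p[pIL-4] loops that were washout loops (y axis, percent, with 95% Wilson intervals) by span in kb (left) and by decile of strength from weakest to strongest (right). The dashed line is the share over all loops, 1.48%. The share was 2.75% in the weakest decile and 0.237% in the strongest.

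At the 204 washout loops called in the same bins, the counts of both washed-out lists could be set side by side. The rule used these calls but not the ratio of their counts. M2p[pIL-4] had 10659 contacts over these loops and pIL-4 + IFNG had 10550. With counts scaled on the bins shared by every list, pIL-4 + IFNG over M2p[pIL-4] gave a median log2 ratio of -0.01 (quartiles -0.09 and 0.07). No washout loop was higher by over 1.5-fold and 1 was lower. Over all 32273 pairs of bins called in both lists, 1.76% were higher and 1.74% lower by that much, with quartiles of -0.16 and 0.16. These values compare 2 lists and carry no replicate error.

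The loop that was lower joined Scfd2 to the bin with the start of Pdgfra, a growth factor receptor of mesenchymal cells. It had 18 contacts in M2p[pIL-4], and pIL-4 + IFNG had 11, a log2 ratio of -0.69 with an exact binomial interval from -1.92 to 0.47, which includes no difference.

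The counts of both lists lay closer together at these loops than independent Poisson counts would. The mean squared difference over its Poisson variance was 0.237 at the washout loops, where independent counts give about 1, and 0.659 over all loops in the same bins of both lists. It was 0.172, 0.183 and 0.207 at the loops that M2p[pIL-4] shared in the same bins only with M0[CTR], M2[IL-4] and IFNG, respectively. All of these loops had been selected for being called in both lists. Differences this small were found with each of the 4 partner lists.

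**Figure D4:**
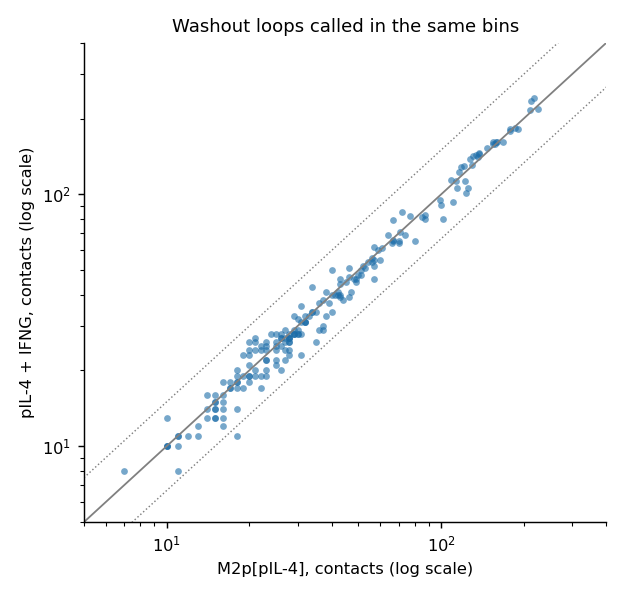
Contacts in pIL-4 + IFNG (y axis, log scale) against contacts in M2p[pIL-4] (x axis, log scale) at the 204 washout loops called in the same bins, one point a loop. The solid line is equality and the dotted lines are 1.5-fold either way, without scaling. All points but 1 lie between the dotted lines.

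The sequence features of the anchors were set against the same lists. A convergent pair of CTCF consensus matches, with 1 mismatch allowed, was present in 58 washout loops (5.8%) and a divergent pair in 1.3%. Over all M2p[pIL-4] loops these shares were 10.1% and 3.03%, and over loops found in all 5 lists 10.9% and 3.21%. With no mismatch, 5 washout loops (0.5%) held a convergent pair, against 0.694% of all. When each anchor was widened by 1 bin on either side the shares were 23.2% and 38.0%. The loops matched only in M0[CTR] (4.92%) or M2[IL-4] (5.97%) were near the washout loops in this, and those matched only in IFNG were at 8.41%.

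Taken as single bins, the 1874 anchor bins of washout loops were not short of consensus matches. With 1 mismatch allowed, 33.5% held at least one, against 34.9% of all M2p[pIL-4] anchor bins and 21.6% of all sequenced autosomal bins. Each bin was counted once here, however many loops it anchored, so these shares cannot be set beside those of pairs. Counted by loop and in any orientation, both anchors held a match in 12.1% of washout loops and 18.4% of all M2p[pIL-4] loops.

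STAT-type sites, TTC and GAA separated by 4 bases as preferred by STAT6 or by 3 bases as in other STAT sites, were common in every bin of this size. The mean number per bin at 4 bases apart was 2.84 in washout anchors, 2.76 in all M2p[pIL-4] anchors and 3.14 in all autosomal bins. At 3 bases apart the means were 3.32, 3.23 and 4.00. Base composition went with these: the median GC content was 44.6%, 45.3% and 41.4%. GATC, the sequence cut by MboI in the Hi-C protocol, occurred a median of 25 times per bin in washout anchors and 24 times in the others. Its part in the calls was not tested.

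The share of loops with a promoter at an anchor differed between the sets. At least one anchor bin held the transcription start site (TSS) of a protein-coding gene in 263 loops (26.3%), and both did in 5.1%. The shares were 29.2% and 4.57% over all M2p[pIL-4] loops, and 26.4% and 5.5% for loops matched only in M2[IL-4]. At least one anchor held a TSS in 23.8% of loops matched only in M0[CTR], 21.3% of those matched only in IFNG and 20.0% of those in M2p[pIL-4] alone. Of the 2000 anchor ends, 15.7% held a TSS, 47.2% lay in a gene body and 37.1% were intergenic. The most common pairing was gene body with gene body, in 281 loops.

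The washout loops were scattered over the genome. Touching bin pairs merged into 922 clusters, 853 of which were a single pair, 60 held 2 pairs and 9 held 3. By 1 Mb windows, 578 of 1710 windows with loops held a washout loop and 347 of these held just 1. The highest number was 8, in 2 windows of chromosome 13 starting at 5000001 (8 of 93 M2p[pIL-4] loops) and 37000001 (8 of 212). By chromosome, the share ran from 0.83% on chromosome 8 to 2.12% on chromosome 12.

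The strongest washout loop, by the lower of its strengths in both lists, joined a gene body to a promoter on chromosome 11. Its first anchor (83320001 to 83330000) lay in Ap2b1, a subunit of the clathrin adaptor, and its second (83420001 to 83430000) held the TSS of Gas2l2, a linker of actin and microtubules. It had 71 contacts in each washed-out list, 1.775 times the median at its span. The nearest M2[IL-4] loop, with 59 contacts, was 30 kb off, and neither M0[CTR] nor IFNG listed any within 100 kb. The CTCF matches of both anchors are printed above.

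Of the 10 strongest loops, 4 joined adjacent bins, where counts are high throughout. On chromosome 1, a bin next to the start of Prss56, a serine protease gene linked to eye growth, was joined to the TSS bin (87180001 to 87190000) with 226 contacts in M2p[pIL-4], and pIL-4 + IFNG had 219. Within Zmiz1, a coregulator of transcription, the counts were 218 and 242. A pair of bins upstream of Runx1, a transcription factor required for blood cell formation, had 213 and 235, and the nearest M2[IL-4] loop with 98 contacts lay 30 kb off. The pair at Tubb4a, a beta-tubulin, had 210 and 216. The exact Poisson interval of the Prss56 count in M2p[pIL-4] was 197 to 257, and the interval of each of the 4 log2 ratios included 0.

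The Tubb4a pair belonged to a stretch of chromosome 17 with several washout loops. From its second bin, 57090001 to 57100000, which lies upstream of the Tubb4a start, loops ran to the bins with the starts of Crb3 and Slc25a23 (85 contacts in M2p[pIL-4], 81 in pIL-4 + IFNG) and of Slc25a41 (66 contacts). Crb3 is a regulator of epithelial polarity and Slc25a23 a mitochondrial carrier. The other lists held loops of 36, 55 and 48 contacts for M0[CTR], M2[IL-4] and IFNG at 50, 30 and 40 kb from the Crb3 loop. Each of the 5 groups thus had a listed loop within 50 kb of this one.

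The remaining loops among the 10 strongest were of several kinds. One within Rin2, a regulator of the endocytic GTPase Rab5, had 136 and 141 contacts. One joined a pair of promoter bins on chromosome 11, Poldip2 and Tmem199 with Ift20 and Tnfaip1, with 118 and 128. At the same place M0[CTR] and IFNG held loops of 151 and 161 contacts at 30 kb. A loop of 950 kb between intergenic bins, the second 309 kb from Dcn, had 22 and 17 contacts. One of 570 kb also joined intergenic bins, 229 kb from Uaca and 223 kb from Rplp1. It had 18 contacts in both lists, with 18, 15 and 18 contacts in the 3 other lists at 30 kb.

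The washout loops with the clearest absence elsewhere were the 96 with no loop of the 3 other lists within 100 kb. Of these, 33 were called in the same bins in both washed-out lists, 33 had a TSS in an anchor and 14 held a convergent CTCF pair. Their counts ran from 7 to 147 contacts in M2p[pIL-4]. They were picked by a distance set after the values were known, and they are described without a test.

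Among the clusters of 3 adjoining washout loops, the one between Tmem114 and Mettl22, a methyltransferase gene, on chromosome 16 was of this kind in full. Its 3 loops, between 8400001 and 8500000, had 44, 48 and 52 contacts in M2p[pIL-4], and pIL-4 + IFNG held 52 contacts in the bins of the last. M0[CTR], M2[IL-4] and IFNG listed no loop within 100 kb of any of them. The strength of the last loop was 1.16 in both washed-out lists.

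A second such cluster, on chromosome 3, joined the body of Ank2, a membrane skeleton ankyrin, to Larp7, a protein that binds the 7SK RNA, and to Zgrf1, a helicase gene that starts in the same bin (127550001 to 127560000). Its loops had 21, 25 and 22 contacts in M2p[pIL-4] and were all matched to 1 loop of 24 contacts in pIL-4 + IFNG. IFNG held no loop within 100 kb. M0[CTR] and M2[IL-4] held loops of 29 and 26 contacts at 100 kb from one of the 3 and none for the others. In the other clusters of 3 loops, between Plb1 and Ppp1cb, at Rps3 and Neu3, at Nts, in Zfyve26, at Foxc1, at Olfr283 and at Slc25a23, at least one of the 3 other lists held a loop at 30 to 60 kb from a member or, for Nts, at 70 to 90 kb.

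Of the protein-coding genes, 338 (1.62%) had a washout loop anchored in the bin of their TSS, and none had more than 2. The first 10 with 2, in order of position, were Dnpep, Trpc4ap, Kcna3, Larp7, Zgrf1, Rusc2, Padi6, Pdgfra, Glcci1 and Pparg. Glcci1, a glucocorticoid-induced gene, was the one of these with no loop around it in the groups without washout. Within 100 kb of its TSS, M2p[pIL-4] and pIL-4 + IFNG listed 3 loops each, and M0[CTR], M2[IL-4] and IFNG listed 0. Its loops to Ica1 had 24 and 26 contacts, and the match in pIL-4 + IFNG, 20 kb off, had 18.

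The Scfd2 loops to the Pdgfra promoter bin, of 720 and 730 kb, had no M0[CTR], M2[IL-4] or IFNG loop within 100 kb. Around the Pdgfra TSS itself, those lists held 13, 19 and 17 loops within 100 kb. The Scfd2 loops had 18 and 13 contacts in M2p[pIL-4] against 11 in pIL-4 + IFNG. At Kcna3, a voltage-gated potassium channel, the loops of 60 and 48 contacts were matched by 55 contacts in pIL-4 + IFNG, and other lists held loops of 27 to 54 contacts at 70 to 90 kb. The genes Dnpep, Trpc4ap, Rusc2 and Padi6 lay among loops of every list, with 21 to 48 loops in M0[CTR] within 100 kb.

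Genes of macrophage biology were looked up in 10 lists, which were drawn up with earlier results of these data known. Over all 20807 autosomal protein-coding genes, 3384 (16.3%) had a washout loop anchor within 100 kb of their TSS. Of 29 IL-4-induced genes 6 had one (20.7%, interval 9.85 to 38.4%) and of 29 IFNG-induced genes 8 did (27.6%, 14.7 to 45.7%). Igtp and Irgm2, counted separately among these 8, start in the same bin, which the interval does not allow for. The counts were 4 of 25 for inflammatory response genes, 6 of 25 for macrophage lineage genes, 5 of 25 for cholesterol and lipid genes and 6 of 20 for AP-1 and immediate early genes. They were 5 of 20 for cell cycle genes, 7 of 28 for housekeeping genes and 4 of 29 for genes of other lineages. On a list of 13 genes chosen from those that the study discussed, only Klf4 had one. Cd86, Cyp51 and Mitf, which the paper also names, stood on other lists here and each had at least 1. The interval of every list included 16.3%.

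The genes of the lists differed in how many loops surrounded them, so washout loops were also set against these. Per 1000 M2p[pIL-4] loops within 100 kb, washout loops numbered 11.8 over all genes, 6.69 at IL-4-induced genes, 7.71 at IFNG-induced genes, 10.1 at macrophage lineage genes and 11.5 at housekeeping genes. By this count no list stood above the genes as a whole. The rule excludes loops near those of 3 lists, which lowers this number where loops are dense. The median number of M2p[pIL-4] loops was 35 around IL-4-induced genes and 38 around IFNG-induced genes. It was 9 over all genes and 4 for genes of other lineages. The count therefore cannot rank the lists.

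**Figure D5:**
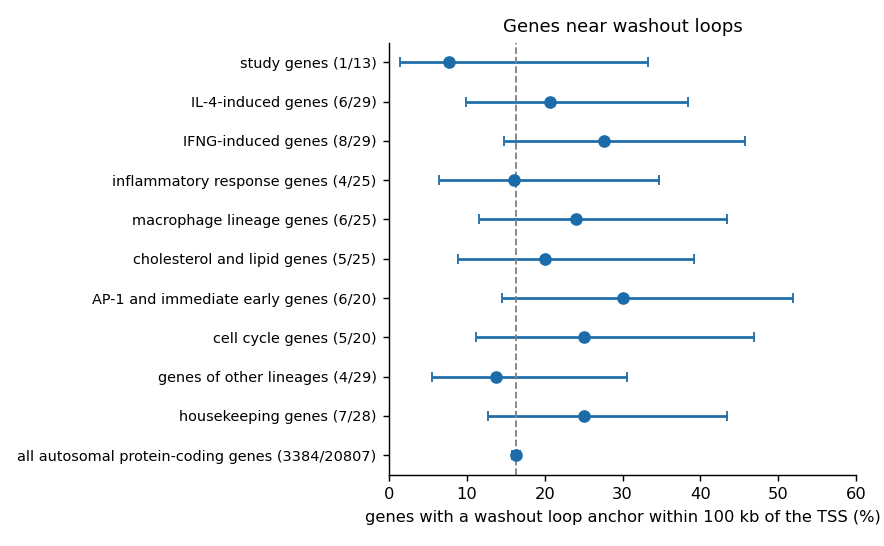
Share of genes with a washout loop anchor within 100 kb of the TSS (x axis, percent, with 95% Wilson intervals) for 10 gene lists and for all autosomal protein-coding genes, with the number of genes in brackets. The dashed line is the share over all genes, 16.3%. The interval of each list includes it.

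In the TSS bin itself, 6 genes of the lists had a washout loop. Of these, 5 are described. Pparg, the nuclear receptor that IL-4 induces in macrophages, had a pair of them, from bins 30 and 50 kb upstream. They had 71 and 52 contacts in M2p[pIL-4], and both were matched to one loop of adjacent bins in pIL-4 + IFNG, 20 kb off and with 112 contacts. M0[CTR] held a loop of 159 contacts 30 kb off from both. M2[IL-4] and IFNG held loops of 57 and 68 contacts 30 kb from the longer one, and of 77 and 68 contacts 50 kb from the shorter. The match in pIL-4 + IFNG did not reach the promoter bin itself. Within 100 kb of the Pparg TSS, M2p[pIL-4] listed 34 loops and pIL-4 + IFNG 28, against 20 for M0[CTR], 25 for M2[IL-4] and 27 for IFNG.

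Maf, a transcription factor of macrophages, had a loop with 24 contacts, a match of 23 contacts 20 kb off, and loops of 28, 36 and 23 contacts in the others at 30 to 40 kb.

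Bcl6, a transcriptional repressor, had a loop of 1200 kb with 8 contacts in M2p[pIL-4] and a match with 10. M0[CTR], M2[IL-4] and IFNG held 9, 10 and 8 contacts at 30 kb, so the counts could not be told apart at this depth. Nr4a1, an immediate early nuclear receptor, had a loop of 720 kb with 12 contacts and a match with 14. M2[IL-4], IFNG and M0[CTR] held loops of 11, 15 and 21 contacts at 30, 60 and 70 kb from it. Afp, the alpha-fetoprotein gene of fetal liver, which stood on the list of other lineages, had 21 contacts and a match with 21, with no loop of M0[CTR] or M2[IL-4] within 100 kb and an IFNG loop of 24 contacts 80 kb off.

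The promoters of Bcl6 and Pparg, to which these loops were anchored, are printed from RefSeq (GRCm38.p6) from 250 bases before to 50 after the start, on the gene's strand. Capitals mark TTC and GAA pairs 3 or 4 bases apart, the core of PU.1 sites (GAGGAA on either strand) and AP-1 sites (TGACTCA or TGAGTCA).
Bcl6, chr16:23988803-23989102, minus strand: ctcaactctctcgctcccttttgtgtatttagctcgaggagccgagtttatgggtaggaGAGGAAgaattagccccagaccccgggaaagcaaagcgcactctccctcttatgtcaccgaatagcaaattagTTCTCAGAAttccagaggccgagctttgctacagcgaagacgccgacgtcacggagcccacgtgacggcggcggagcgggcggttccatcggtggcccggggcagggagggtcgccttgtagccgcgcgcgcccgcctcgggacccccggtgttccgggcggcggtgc
Pparg, chr6:115360894-115361193, plus strand: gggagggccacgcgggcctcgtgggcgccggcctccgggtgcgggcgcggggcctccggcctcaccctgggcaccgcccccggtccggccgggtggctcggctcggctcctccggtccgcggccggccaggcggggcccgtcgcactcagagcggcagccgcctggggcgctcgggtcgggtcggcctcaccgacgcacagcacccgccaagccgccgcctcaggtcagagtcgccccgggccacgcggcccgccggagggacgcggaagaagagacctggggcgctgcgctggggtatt

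The Bcl6 window held 1 STAT pair 3 bases apart and 1 PU.1 core, and the Pparg window held none of these letters. A second RefSeq window of each gene lay in the same anchor bin, with 3 STAT pairs 3 bases apart for Bcl6 (chr16:23981234-23981533) and 1 PU.1 core for Pparg (chr6:115362099-115362398). Over 31396 autosomal promoter windows, 8.35% held a STAT pair 3 bases apart, 6.98% one 4 bases apart, 28.2% a PU.1 core and 5.26% an AP-1 site. RefSeq held a window inside a washout anchor bin for 16 of the 22 genes with a TSS in the anchors of the loops singled out by strength, cluster or list.

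Of the IFNG-induced genes, none had a washout loop in its TSS bin. Those with one within 100 kb were Cd40, Il18bp, Irgm1, Igtp, Irgm2, Cd86, Iigp1 and Ifit2. Around Cd86, a costimulatory ligand, M2p[pIL-4] listed 5 loops and pIL-4 + IFNG 10, and the groups without washout listed 2 to 7. Igtp and Irgm2, GTPases of vacuole defence whose starts lie in one bin, had 7 loops in M2p[pIL-4], 11 with added IFNG and 4 to 7 elsewhere. Around Ifit2, an interferon-induced RNA-binding protein, the highest number was that of IFNG, at 49, with 34 in M2p[pIL-4]. In M2p[pIL-4] and pIL-4 + IFNG, Cd40 had 40 and 41 loops, Il18bp 30 and 23, Irgm1 49 and 49, and Iigp1 2 and 5. The groups without washout listed 31 to 36, 13 to 19, 41 to 50 and 0 to 2 loops around these genes, respectively. Both washed-out lists were also the longest. These counts are of one list each and are given as a description.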

How the data were processed

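Hi-C used MboI digestion and Tn5 libraries. Per the labels and the study's methods, reads were processed with FastQC, Bowtie2, HiC-Pro, Juicer and HOMER on mm10. The study's methods describe loops called at another resolution than these 10 kb lists, whose caller and threshold are not given in the sources used here. The authors deposited 1 list a group, with a raw count of contacts per pair of bins. Both replicates seem to be merged in it, so no test between groups was possible. Total counts were 2170953 to 2781666 per autosomal list.

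Loops matched when both anchors were at most 2 bins apart. Strength was a loop's count divided by the median for equal spans in its list, with spans from 1000 kb sharing one median. Genes came from GENCODE and sequences from RefSeq GRCm38.p6, the build of the lists. CTCF matches used the 14-base core consensus. Intervals were Wilson intervals unless named. Matching was tested on simulated data. Python 3, numpy, pandas and scipy were used.

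Named loops were the 10 strongest in the same bins, the 10 clusters with most loops, loops in the TSS bin of list genes, and the 10 genes with most loops in their TSS bin. Members and lists were chosen with earlier results of these data known. Alternatives covered match distance, list length, weak calls, windows and scaling. One gene with a loop in its TSS bin is not reported here.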

Additional observations from a re-analysis of the deposited data

How the results depend on the processing

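The number of washout loops depended on the matching. It was 4155 with matches in the same bins, 1707 within 1 bin, 461 within 5 bins, 247 with absence required within 5 bins, and 560 with lists of equal length. The share matched in pIL-4 + IFNG was 16.8% in the same bins, 25.8% within 5 bins, 20.8% with equal lengths and 29.0% for loops of 20 or more contacts. With a TSS counted in or next to the bin, 51.8% of washout loops had one. Convergent CTCF pairs were in 0.5% with no mismatch and 23.2% with widened anchors, and 67.7% of anchor ends were in or next to an M0[CTR] anchor bin. Of the loops in the same bins, 1 passed 1.5-fold and 0 passed 2-fold. List entries with a washout loop nearby (Klf4 counted in 2 lists) fell from 52 to 16 within 25 kb and 6 in the TSS bin. The cause of the shifts in the matched share was not tested. The other 12 alternatives for these results stayed within 1.5 times the count or within the interval or spread of the value. The median log2 ratio was 0.01 for loops with 60 or more contacts. Counts of 6 to 39 contacts, where most washout loops lay, leave small differences undetectable. No paired analysis was possible because there was 1 list per group, which seems to merge both replicates. Leaving out a replicate was not run for the same reason.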

Other observations

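On chromosome X, which the rule leaves out, 195 M2p[pIL-4] loops were listed and 7 of them were found only in both washed-out lists (3.59%, interval 1.75 to 7.22%). The same count was 10 with M0[CTR] as the only match, 2 with M2[IL-4] and 4 with IFNG.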
